A study of Mus musculus with 12 samples.

Results

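The genes described here are 7 ADP-ribosyltransferases of the PARP family (Parp1, Parp8, Parp9, Parp10, Parp11, Parp12 and Parp14) and Dtx3l, an E3 ubiquitin ligase that pairs with Parp9. They were taken by gene symbol, with earlier results of these data known, as 8 of the 20778 genes in the count table. All 8 were among the 12122 genes that passed the filter on low counts. RNA was sequenced from CD8 T cells taken with magnetic beads (MojoSort) from the spleen of C57BL/6 mice. In each of 4 groups there were 3 mRNA libraries, all from cells cultured for 6 hours. Naïve cells received no treatment, αCD3 cells received an antibody to the CD3 part of the T cell receptor (1 µg/ml), IFNγ cells received interferon gamma (70 ng/ml) and LPS cells received bacterial lipopolysaccharide (1 µg/ml). For αCD3 and LPS the labels' fields disagree on whether the dose is in µg or mg, which leaves that unit uncertain. The labels give the age as 6 weeks, whereas the study's methods name an older range for its mice, and the age is likewise uncertain. No transgene, knockout or Cre was named for any group.

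PARP enzymes take NAD and transfer its ADP-ribose onto other molecules. Parp1 builds long chains of ADP-ribose at DNA breaks, whereas Parp10, Parp11, Parp12 and Parp14 attach single units, and Parp9 and Parp14 carry macrodomains that bind ADP-ribose. Several of these enzymes are known interferon-stimulated genes with roles in antiviral defence, whose transcription is driven by STAT and IRF proteins that bind the ISRE and GAS elements of promoters.

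The labelled cell type was checked against marker genes. CD8 genes (Cd8a and Cd8b1) summed to 533 to 581 CPM (counts scaled to a common library total) in Naïve, 638 to 917 CPM in αCD3, 549.5 to 641 CPM in IFNγ and 480.0 to 618 CPM in LPS. T cell genes (4 of 5 markers were in the table) summed to 526 to 573 CPM in Naïve, 716 to 782 CPM in αCD3, 542 to 581 CPM in IFNγ and 378 to 442 CPM in LPS, so that αCD3 lay above and LPS below the other groups. Markers of B cells (6 of 6 in the table) summed to more than those of T cells in every library, with 2767 to 3041 CPM in Naïve, 2015 to 2239 CPM in αCD3, 2428 to 2517 CPM in IFNγ and 1583 to 2101 CPM in LPS. Markers of myeloid cells (7 of 7) summed to 472 to 880 CPM in Naïve, 333 to 502 CPM in αCD3, 373 to 707 CPM in IFNγ and 315 to 535 CPM in LPS, and no B cell or myeloid marker was at 0 in a group. Markers of dendritic cells (4 of 4) summed to 70.0 to 113 CPM in Naïve, 62.1 to 74.2 CPM in αCD3, 44.6 to 68.1 CPM in IFNγ and 68.6 to 92.3 CPM in LPS, so that IFNγ lay below Naïve. By the edgeR test described below, IFNγ lowered Flt3 (-0.99, adjusted p = 0.00411) and Itgax (-1.10, adjusted p = 0.00648). Siglech (-0.23, adjusted p = 0.907) and Zbtb46 (-0.09, adjusted p = 0.628) were not called. Sums can hide opposite moves within a list. With LPS the B cell markers Cd79a (-1.62) and Cd79b (-1.88) were called lower and Pax5 higher (0.39, adjusted p = 0.0228). Among myeloid markers Lyz2, Csf1r and Adgre1 were called lower with LPS and Cd14 higher (1.15, adjusted p = 0.0499). CD4 T cell markers (3 of 3) summed to 65.3 to 107 CPM. The values below are those of whole libraries, in which fewer cells of a type cannot be told apart from less RNA per cell. The part of these marker differences in the results was not tested. Total counts were about 27610200 in αCD3 replicate 1 and 10196200 to 18900500 in the other libraries.

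Libraries carrying the same replicate number were alike across groups. Replicate 1 stood apart in all 4 groups. Its erythroid markers (3 of 4 in the table) summed to 94 to 162 CPM, against 378 to 1183 CPM in replicates 2 and 3, and its NK cell markers (3 of 3) to 3.17 to 5.26 CPM against 8.28 to 14.7 CPM. Its myeloid marker sum was the lowest of each group, at 315 to 472 CPM against 419.8 to 880.0 CPM, ranges that overlap across groups. In the treated groups the 6 genes that respond below were also lowest in replicate 1. The part of these differences in the results was not tested. Values are therefore also given within replicate numbers, and from a second fit, blocked on replicate number, where it changed a call. No source says whether replicates came from separate mice, so p-values measure the spread between these libraries, which may be technical.

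Promoter windows of these genes are shown to place the members' start sites and the interferon elements around them. RefSeq promoters on GRCm38.p6, each reaching from 250 bases before to 50 bases after an annotated start, were found for 5 of the 8 genes (Parp1, Parp8, Parp11, Parp12 and Dtx3l). Each window was searched on both strands for an ISRE core, GAAANNGAAA or its reverse complement TTTCNNTTTC, and for a GAS element, TTCNNNGAA. Of all 32851 mouse promoter windows of this length, 3.44% held the ISRE core and 8.3% the GAS element. Among the windows of the 8 genes a match was found at 1 start of Parp11. It lies in chr6:127446590-127446889 (+ strand), where the ISRE core begins 44 bases before the start and the GAS element 37 bases before it, so that they share 3 bases. Capitals mark the 16 bases that the overlapping elements cover.
Parp11, upstream start: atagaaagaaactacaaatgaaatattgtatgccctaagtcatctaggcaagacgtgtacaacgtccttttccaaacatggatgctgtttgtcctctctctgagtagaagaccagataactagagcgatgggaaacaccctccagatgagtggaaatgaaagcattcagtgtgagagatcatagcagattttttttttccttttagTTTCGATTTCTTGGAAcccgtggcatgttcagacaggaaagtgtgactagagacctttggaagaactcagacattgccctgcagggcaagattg

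This start is used by 1 of the 10 annotated transcripts of Parp11 (GENCODE M21), and 4 others start in the gene's second RefSeq window, chr6:127453377-127453676, which held no match. The Dtx3l window, chr16:35938978-35939277 (− strand), is shown because 4 of the 7 annotated Parp9 transcripts start inside it on the opposite strand. It was placed on the Dtx3l start and Parp9 had no window of its own, so little of the sequence before those Parp9 starts was searched. The Parp12 window, chr6:39118300-39118599 (− strand), belongs to the gene with the largest fold change under IFNγ, and the Parp1 window, chr1:180568641-180568940 (+ strand), to a gene that was not called by the TMM-scaled edgeR test of all 12 libraries without the block. None of these held either element, which says only that these letters are absent from these windows.
Dtx3l: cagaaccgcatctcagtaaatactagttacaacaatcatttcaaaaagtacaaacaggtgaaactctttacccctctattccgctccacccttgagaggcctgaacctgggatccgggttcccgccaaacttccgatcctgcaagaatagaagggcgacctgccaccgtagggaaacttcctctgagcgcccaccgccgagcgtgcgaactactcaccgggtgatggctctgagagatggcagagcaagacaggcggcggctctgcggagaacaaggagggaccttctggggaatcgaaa
Parp12: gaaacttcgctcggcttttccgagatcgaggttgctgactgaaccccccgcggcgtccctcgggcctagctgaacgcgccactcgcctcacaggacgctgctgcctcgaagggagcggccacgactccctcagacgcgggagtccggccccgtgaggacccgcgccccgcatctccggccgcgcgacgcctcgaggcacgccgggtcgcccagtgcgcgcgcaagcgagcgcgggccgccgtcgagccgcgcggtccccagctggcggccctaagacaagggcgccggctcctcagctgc
Parp1: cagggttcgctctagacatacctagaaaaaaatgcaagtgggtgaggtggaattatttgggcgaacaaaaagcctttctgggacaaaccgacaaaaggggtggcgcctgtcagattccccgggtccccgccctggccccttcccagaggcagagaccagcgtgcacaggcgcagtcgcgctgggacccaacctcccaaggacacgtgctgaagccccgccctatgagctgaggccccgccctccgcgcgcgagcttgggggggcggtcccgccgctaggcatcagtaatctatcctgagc

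IFNγ raised 6 of the 8 genes against Naïve, namely Parp12, Parp14, Parp9, Dtx3l, Parp10 and Parp11, by 2.78-fold to 7.69-fold. For each of these 6 genes all IFNγ libraries lay above all Naïve libraries, a separation seen in 16.1% of the tested genes. By edgeR's quasi-likelihood F-test with Benjamini-Hochberg adjustment over all tested genes, used for all adjusted p-values below unless another fit is named, a gene is called at an adjusted p under 0.05, and 8.17% of all tested genes were called higher and 4.27% lower in this comparison. The median log2 fold change of the 8 genes was 1.99, beside -0.02 for all tested genes. The plot of expression by library shows the values described next.

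**Figure D1:**
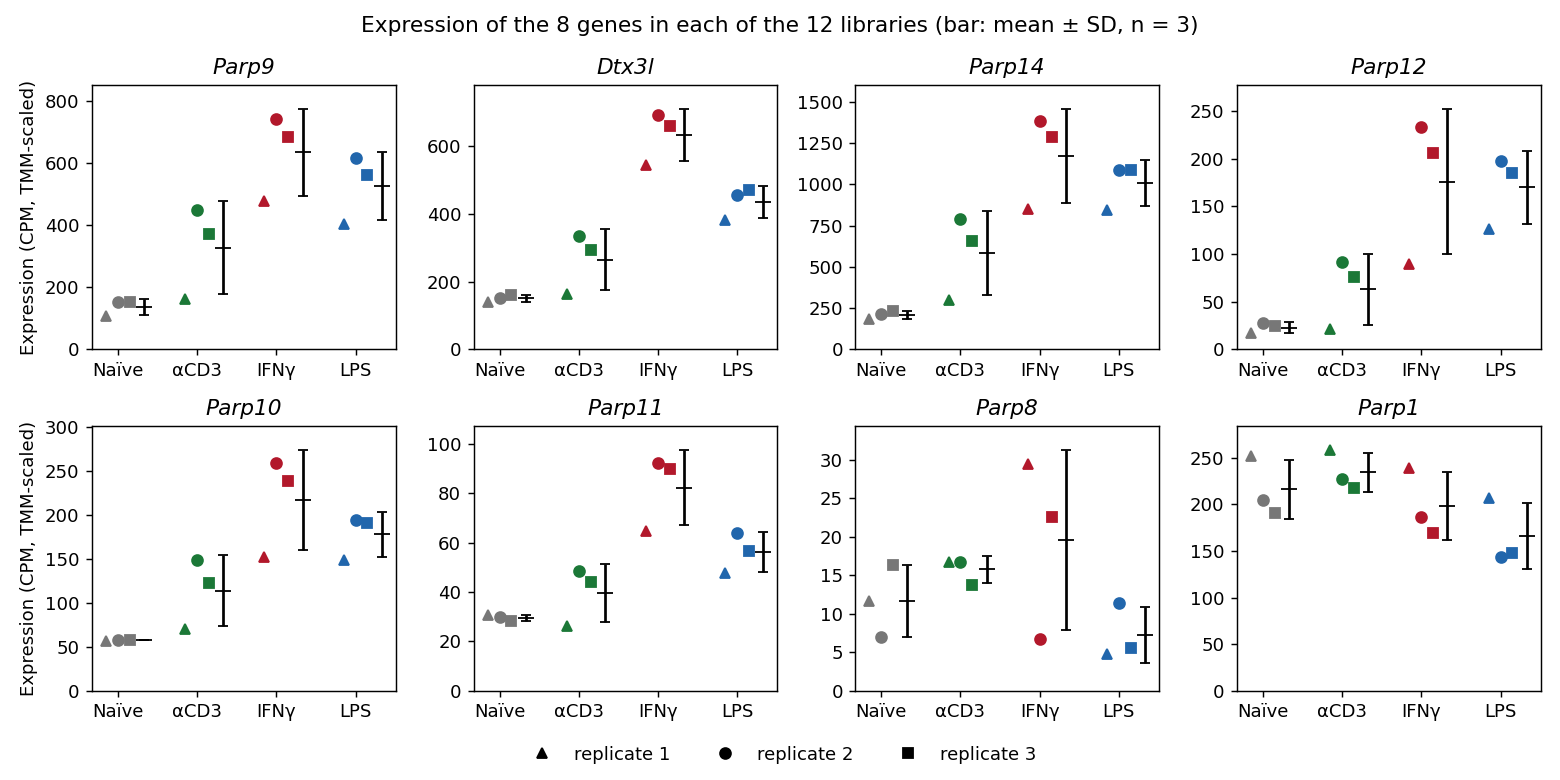
Expression (CPM on TMM-scaled library sizes, linear axes from 0) of the 8 genes in each library, with 1 symbol per replicate number and the mean ± SD of 3 libraries beside each group. For Parp9, Dtx3l, Parp14, Parp12, Parp10 and Parp11 every IFNγ and LPS library lies above every Naïve library, and αCD3 replicate 1 lies near the Naïve level; treated Parp8 and Parp1 libraries overlap the Naïve range.

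Parp9 and Dtx3l form a complex in which Dtx3l carries the ubiquitin ligase activity. Expression of Parp9 was 106, 153 and 152 CPM in Naïve replicates 1 to 3 and 476, 740 and 684 CPM in IFNγ. In αCD3 it was 160, 449 and 372 CPM, and in LPS 404, 615 and 559 CPM. Every treated library thus lay above every Naïve library, αCD3 replicate 1 by a small margin, and replicate 1 was the lowest of its group throughout. The log2 fold change of Parp9 was 2.21 ± 0.35 (SE, n = 3, adjusted p = 0.00268) with IFNγ, 1.94 ± 0.35 (adjusted p = 0.00109) with LPS and 1.25 ± 0.34 (adjusted p = 0.0147) with αCD3.

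Dtx3l followed the same order of groups. Its expression was 139, 152 and 159 CPM in Naïve, 164, 336 and 294 CPM in αCD3, 545, 693 and 659 CPM in IFNγ, and 382, 456 and 471 CPM in LPS. The IFNγ, LPS and Naïve libraries did not overlap, and αCD3 replicate 1 was just above the highest Naïve library. Dtx3l rose by 2.07 ± 0.22 on the log2 scale with IFNγ (adjusted p = 4.53e-04), by 1.54 ± 0.22 with LPS (adjusted p = 2.74e-04) and by 0.81 ± 0.22 with αCD3 (adjusted p = 0.0138).

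Parp14, a macrodomain protein known as a cofactor of Stat6 in interleukin 4 signalling, responded to all 3 stimuli. It reached 848, 1383 and 1285 CPM in IFNγ and 847, 1086 and 1087 CPM in LPS, against 185, 213 and 234 CPM in Naïve and 299, 793 and 655 CPM in αCD3. No treated library fell into the Naïve range. Its log2 fold change was 2.48 ± 0.32 with IFNγ (adjusted p = 0.00109), 2.26 ± 0.32 with LPS (adjusted p = 2.58e-04) and 1.47 ± 0.31 with αCD3 (adjusted p = 0.00429).

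Parp12, a zinc finger member with antiviral activity, had the largest fold change of the 8 genes under IFNγ and under LPS. Naïve libraries held 16.8, 27.3 and 24.8 CPM, whereas IFNγ libraries held 89.2, 233 and 205 CPM and LPS libraries 126, 198 and 185 CPM. In αCD3 it was 21.2, 92.0 and 75.9 CPM, so that replicate 1 lay within the Naïve range and replicates 2 and 3 above it. The log2 fold changes were 2.94 ± 0.53 with IFNγ (adjusted p = 0.00536), 2.89 ± 0.53 with LPS (adjusted p = 0.00127) and 1.45 ± 0.51 with αCD3 (adjusted p = 0.0449). The αCD3 call was kept in 5 of 14 alternatives, with adjusted p-values from 7.74e-06 to 0.174.

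Parp10, which adds single ADP-ribose units and was named as a partner of Myc, was nearly constant among Naïve libraries at 56.9, 57.8 and 57.6 CPM. It was 152, 259 and 238 CPM in IFNγ, 148, 194 and 190.1 CPM in LPS, and 69.6, 149 and 122 CPM in αCD3. No treated library overlapped the Naïve libraries. Parp10 rose by 1.91 ± 0.27 on the log2 scale with IFNγ (adjusted p = 0.0016), by 1.63 ± 0.27 with LPS (adjusted p = 6.71e-04) and by 0.98 ± 0.26 with αCD3 (adjusted p = 0.0146).

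Parp11, found at the nuclear envelope, showed the smallest rise of the 6 genes. Levels were 30.7, 29.7 and 28.1 CPM in Naïve, 64.8, 92.3 and 89.7 CPM in IFNγ, and 47.7, 63.9 and 56.5 CPM in LPS. In αCD3 they were 26.1, 48.6 and 44.0 CPM, with replicate 1 below all Naïve libraries and the others above them. The log2 fold change was 1.48 ± 0.22 with IFNγ (adjusted p = 0.00188) and 0.93 ± 0.22 with LPS (adjusted p = 0.00515), whereas the αCD3 value of 0.41 ± 0.22 did not pass the test (adjusted p = 0.157).

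Parp8 and Parp1 were not called against Naïve under any treatment by TMM-scaled edgeR with all 12 libraries and no block. Parp8, a little studied member, was low and scattered, at 11.7, 7.04 and 16.4 CPM in Naïve, 16.8, 16.8 and 13.8 CPM in αCD3, 29.5, 6.72 and 22.6 CPM in IFNγ, and 4.70, 11.3 and 5.55 CPM in LPS. Its groups overlapped except that αCD3 lay above LPS, and its log2 fold change under IFNγ was 0.74 with a 95% confidence interval from -0.35 to 1.83. Parp1 was 252, 205 and 191 CPM in Naïve, 258, 227 and 218 CPM in αCD3, 239, 187 and 169 CPM in IFNγ, and 206, 143 and 148 CPM in LPS. In every group replicate 1 was the highest for Parp1. Its log2 fold change was -0.12 ± 0.17 with IFNγ (adjusted p = 0.71), 0.12 ± 0.17 with αCD3 (adjusted p = 0.615) and -0.38 ± 0.17 with LPS (adjusted p = 0.0841). With the replicate number as a block, Parp1 fell by 0.39 ± 0.06 with LPS (adjusted p = 3.61e-04), and within replicate numbers 1 to 3 the log2 ratios of LPS to Naïve were -0.29, -0.52 and -0.37. Parp1 was called lower with LPS in 5 of 14 alternatives. Among them was edgeR on library size alone (adjusted p = 0.0222), a scaling under which the median log2 fold change of all tested genes was -0.22. Also among them were the DESeq2 Wald test (adjusted p = 0.043) and the fit without LPS replicate 1 (-0.57, adjusted p = 0.0133).

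**Figure D2:**
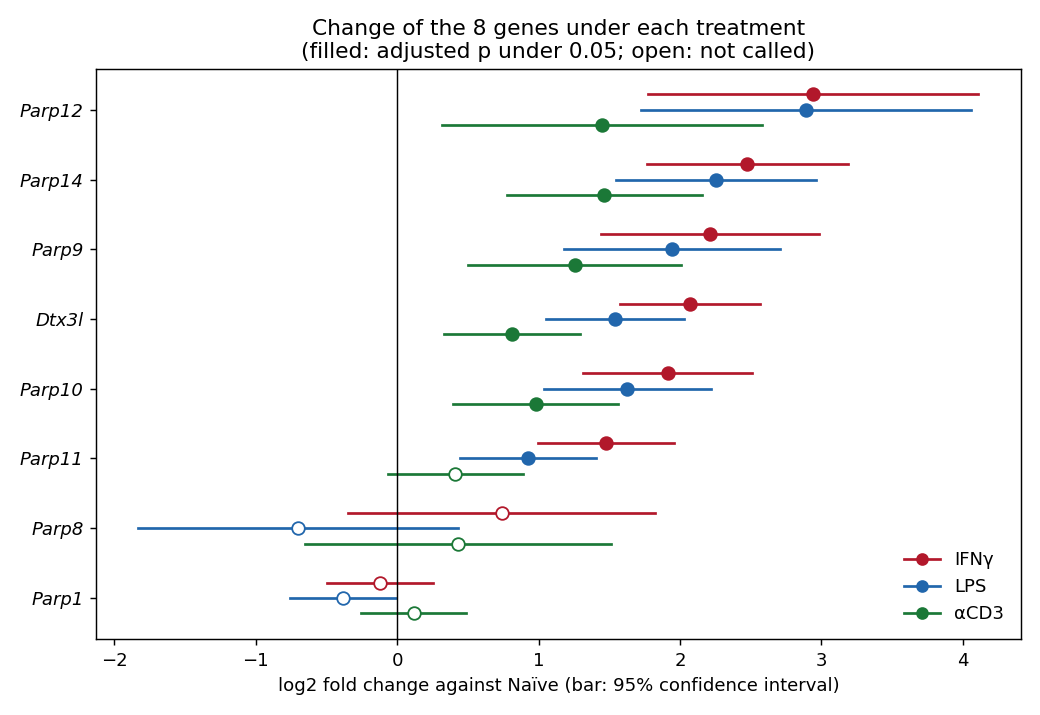
Log2 fold change of each gene against Naïve under IFNγ, LPS and αCD3, with 95% confidence intervals, 3 libraries a group; filled points were called. Parp12 to Parp11 lie to the right of 0 under IFNγ and LPS, the αCD3 value of each gene from Parp12 to Parp11 is the smallest of its 3, and the intervals of Parp8 and those of Parp1 under IFNγ and αCD3 include 0.

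LPS raised the same 6 genes that IFNγ raised, at 1.90-fold to 7.43-fold over Naïve, and αCD3 raised 5 of them, all but Parp11, at 1.76-fold to 2.76-fold. Every library lay above the Naïve libraries for 6 of 8 genes under LPS, beside 30.6% of all tested genes, and for 4 of 8 under αCD3, beside 28.6%. Among all tested genes 26.9% were called higher and 22.3% lower with LPS, and 22.9% higher and 15.7% lower with αCD3. The median log2 fold change of the 8 genes was 1.58 with LPS and 0.90 with αCD3, beside -0.01 and -0.02 for all tested genes. These comparisons share the Naïve libraries with the IFNγ comparison. Of the 8 genes, 6 differed among the 4 groups (adjusted p from 1.16e-04 to 0.0024), beside 59.9% of all tested genes, and Parp1 (adjusted p = 0.104) and Parp8 (adjusted p = 0.123) did not pass.

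The αCD3 result depended on single libraries. Within replicate number 1 the log2 ratios of αCD3 to Naïve were 0.60 for Parp9, 0.23 for Dtx3l, 0.69 for Parp14, 0.33 for Parp12, 0.29 for Parp10 and -0.23 for Parp11. Within number 2 they were 1.55, 1.14, 1.90, 1.75, 1.37 and 0.71 in the same order, and within number 3 they were 1.29, 0.89, 1.48, 1.62, 1.09 and 0.64. Without αCD3 replicate 1, 6 of the 8 genes were called higher than Naïve. Without αCD3 replicate 2 the count was 1, Parp14, and without Naïve replicate 1 or αCD3 replicate 3 it was 3. The share of all tested genes called in either direction moved as well, from 38.6% with all libraries. It was 40.1% without αCD3 replicate 1, 25.4% without αCD3 replicate 2, 31% without Naïve replicate 1 and 27.6% without αCD3 replicate 3.

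The same ratios were steadier under the other treatments. For IFNγ they ran from 2.17 to 2.27 for Parp9, from 1.97 to 2.19 for Dtx3l, from 2.20 to 2.70 for Parp14, from 2.41 to 3.09 for Parp12, from 1.42 to 2.16 for Parp10 and from 1.08 to 1.67 for Parp11. For LPS the range was 1.88 to 2.01 for Parp9, 1.46 to 1.58 for Dtx3l, 2.20 to 2.35 for Parp14, 2.86 to 2.91 for Parp12, 1.38 to 1.75 for Parp10 and 0.64 to 1.1 for Parp11. Each of these paired ratios was above 0.

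To compare the stimuli with each other, the treated groups were set side by side. IFNγ exceeded αCD3 for the 6 responding genes, by 0.93 (Parp10) to 1.49 (Parp12) on the log2 scale, with adjusted p-values from 0.00119 (Dtx3l) to 0.0458 (Parp9). The libraries overlapped for Parp12, where IFNγ replicate 1 lay below αCD3 replicate 2, and did not overlap for the other 5. Among all tested genes 15.8% were called higher in IFNγ than in αCD3 and 21.4% lower. Without αCD3 replicate 1, 4 of the 8 genes were called and the median log2 difference of the 8 genes was 0.68 in place of 0.98, and 2 were called without IFNγ replicate 2 or without IFNγ replicate 3. Over all tested genes the shares called in either direction in these fits were 36.9%, 29.8% and 30.5%. With the replicate block Parp1 was also called, as lower in IFNγ by -0.25 ± 0.06 (adjusted p = 0.0068).

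With all 12 libraries, TMM scaling and the count filter but no block, edgeR called none of the 6 responding genes between IFNγ and LPS. Library size alone in edgeR and the DESeq2 Wald test each called 3 of the 8 genes, beside 40.6% and 42% of all tested genes. Without replicate 1 of all groups edgeR called 6, beside 47.8% of all tested genes. The log2 difference of IFNγ minus LPS was 0.27 for Parp9 (95% confidence interval -0.47 to 1.01), 0.29 for Parp10 (-0.29 to 0.86), 0.05 for Parp12 (-1.02 to 1.12) and 0.22 for Parp14 (-0.45 to 0.89), so that a difference of up to about 1 in either direction is compatible with the Parp12 libraries. Every IFNγ library lay above every LPS library for Parp11 and for Dtx3l. Their differences of 0.55 ± 0.21 (adjusted p = 0.0608) and 0.53 ± 0.22 (adjusted p = 0.0714) did not pass the test. With the replicate block both were called, at 0.55 ± 0.15 for Parp11 (adjusted p = 0.014) and 0.53 ± 0.15 for Dtx3l (adjusted p = 0.0174), as was Parp1, higher in IFNγ by 0.26 ± 0.06 (adjusted p = 0.0053).

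The gene called between IFNγ and LPS without the block was Parp8, higher in IFNγ by 1.44 ± 0.51 (adjusted p = 0.0459), although IFNγ replicate 2 lay within the LPS range. The call was lost with the block (adjusted p = 0.105) and without any 1 of Naïve replicate 1, the αCD3 replicates, IFNγ replicate 1 or 3, or LPS replicate 1 or 3. Without αCD3 replicate 1, and likewise without αCD3 replicate 2, Parp11 and Dtx3l were called in its place. Of all tested genes, 18% were higher and 22.4% lower with IFNγ than with LPS at the same threshold, and 25.8% were called higher with the block.

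Between αCD3 and LPS, Dtx3l was called, lower in αCD3 by -0.72 ± 0.22 (adjusted p = 0.0401). Among all tested genes 9.64% were called higher and 9.76% lower in αCD3 than in LPS. With the replicate block the 6 responding genes were all called lower in αCD3, by -0.54 ± 0.15 for Parp11 to -1.61 ± 0.28 for Parp12, beside 18.2% of all tested genes, and Parp1 was called higher by 0.51 ± 0.06 (adjusted p = 1.80e-04). The Dtx3l call was lost without any 1 of the Naïve replicates, αCD3 replicate 3, IFNγ replicate 2 or 3, or LPS replicate 2 or 3, each left out in turn, and 2 genes were called without αCD3 replicate 2, IFNγ replicate 1 or LPS replicate 1.

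Levels can be compared between genes per kilobase of exon. In Naïve cells Parp1 led at 40.8 ± 6.06 CPM per kb (SD, n = 3), followed by Parp9 at 28.1 ± 5.49, Dtx3l at 26.2 ± 1.76 and Parp14 at 22.6 ± 2.67 CPM per kb. The ranges of mean ± SD of Parp9 and Dtx3l overlapped, as did those of Dtx3l and Parp14. Parp10 came next at 13.4 ± 0.10, then Parp12 at 5.75 ± 1.37, Parp11 at 4.20 ± 0.18 and Parp8 at 1.32 ± 0.53 CPM per kb. In IFNγ cells the order was Parp9 at 130.1 ± 28.6, Parp14 at 126 ± 30.6 and Dtx3l at 110.4 ± 13.5 CPM per kb, then Parp10 at 50.7 ± 13.2, Parp12 at 44.0 ± 19.1 and Parp1 at 37.5 ± 6.87. Within each of these sets of 3 genes the ranges of mean ± SD overlapped. Parp11, at 11.7 ± 2.16, and Parp8, at 2.21 ± 1.31, were the lowest. In LPS Parp14 and Parp9 led at 108 CPM per kb each, followed by Dtx3l at 76.2, Parp12 at 42.5, Parp10 at 41.5 and Parp1 at 31.3. In αCD3 the order was Parp9 at 67.1 ± 30.6, Parp14 at 62.6 ± 27.4, Dtx3l at 46.2, Parp1 at 44.2 and Parp10 at 26.6 CPM per kb, with wide overlap among the first 4. Parp1 thus stood at rank 1 of 8 in Naïve and rank 6 of 8 in IFNγ by this measure. By mean transcript length in place of exon length the order changed, with Parp1 at rank 3 in IFNγ and in LPS and at rank 1 in αCD3, and Parp9 and Dtx3l in Naïve stood at 81.1 and 37.8 CPM per kb.

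Across the 12 libraries the 6 responding genes moved closely together. Pearson's r of log2 CPM between pairs of them ran from 0.928 to 0.993, Parp1 had an r of -0.519 to -0.679 with them, and Parp8 had an r of -0.196 to 0.015. These are descriptions over 12 libraries that share groups, replicate numbers and depth. Among all other tested genes the closest to Parp9 were Zbp1, a sensor of Z-form nucleic acids (r = 0.999), Stat2, a transcription factor of interferon signalling (r = 0.996), and D17Wsu92e (r = 0.994). Parp14 was closest to Ifi206, Ifi208 and Ifit3 (r = 0.996 to 0.997), Parp10 to Ifi208, Trafd1 and H2-T22 (r = 0.993 to 0.996), and Parp12 to Ddx60, Ddx58 and Herc6 (r = 0.993 to 0.996). Dtx3l was closest to Trim21, Gbp9 and Uba7 (r = 0.992 for each), and Parp11 to Ido1, Sp140 and Apobec3 (r = 0.988 to 0.990). For Parp1 the closest were Sufu, Bicdl1 and Rhot2 (r = 0.959 to 0.980), and for Parp8 Sirt5, Lcat and Atg7 (r = 0.860 to 0.924).

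The genes Parp14, Dtx3l and Parp9 lie side by side on chromosome 16. In GENCODE M21 on GRCm38, Parp14 spans chr16:35832874-35871544 (− strand), Dtx3l chr16:35926511-35939151 (− strand) and Parp9 chr16:35938470-35972605 (+ strand). Parp9 and Dtx3l overlap head to head by 682 bases, and 91.4% of the 31-base words of Parp9 and 90.3% of those of Dtx3l are unique to the gene. Whether the counting used strand is not stated, so reads from the overlap cannot be told apart. Of the other 6 tested genes that start within 200 kb of the Dtx3l start, Hspbap1 rose with IFNγ by 0.76 (adjusted p = 0.0341) and with LPS by 0.71 (adjusted p = 0.0141). Kpna1, an importin that carries proteins into the nucleus and starts 39.6 kb away, was -0.12 with IFNγ (adjusted p = 0.26) and rose with αCD3 by 0.32 and with LPS by 0.47. The others were not called under IFNγ. Of these, Dirc2 was -1.18 with αCD3 (adjusted p = 4.69e-06) and -0.50 with LPS (adjusted p = 3.01e-04). Wdr5b was -0.77 with LPS (adjusted p = 0.0029), and Ccdc58 was 0.77 with αCD3 (adjusted p = 0.0158).

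**Figure D3:**
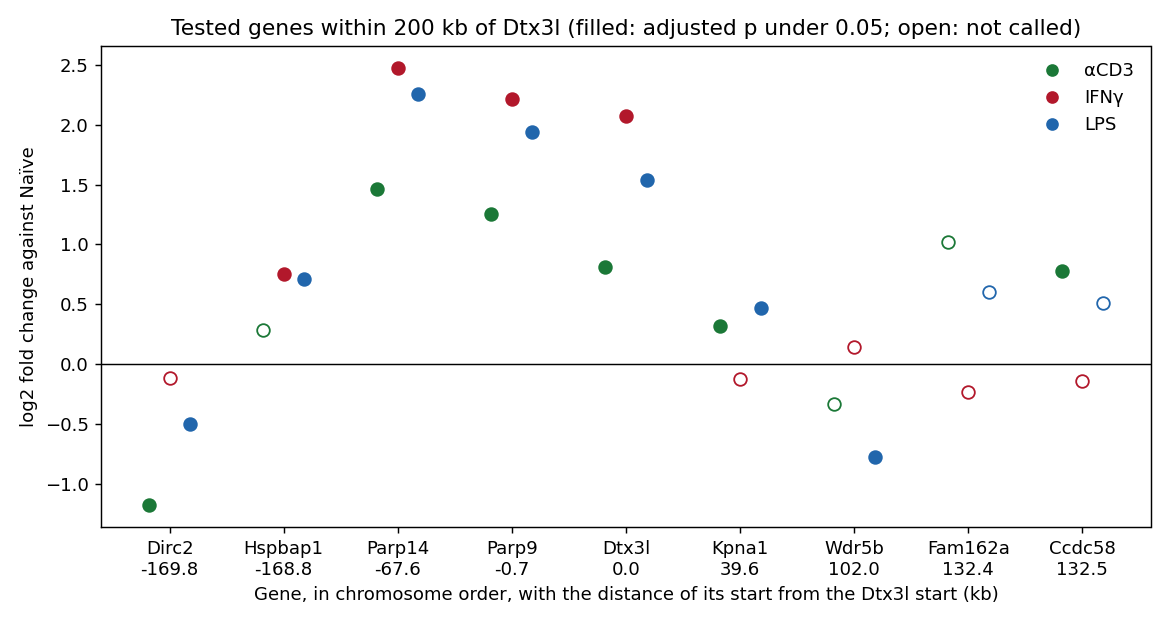
Log2 fold change against Naïve of Dtx3l and of the 8 other tested genes that start within 200 kb of it, in chromosome order with the distance in kb under each name; filled points were called. Parp14, Parp9 and Dtx3l lie between 0.81 and 2.48 under all 3 treatments, and among the genes around them Hspbap1 was the gene called under IFNγ.

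The other members are scattered over the genome. Parp10 spans chr15:76231174-76243441 (− strand) and overlaps Plec on the same strand, with 95.9% unique words. Of 13 tested neighbours of Parp10 within 200 kb, 2 rose with IFNγ, Grina by 0.78 (adjusted p = 0.00387) and Sharpin, a subunit of the linear ubiquitin ligase, by 0.40 (adjusted p = 0.00846), the latter lower with LPS (-0.38, adjusted p = 0.00312). Parp12 (chr6:39086410-39118349, − strand) had Kdm7a as its tested neighbour, at 0.09 with IFNγ (adjusted p = 0.719) and lower with αCD3 (-0.52) and LPS (-0.54), and Parp11 (chr6:127446840-127494261, + strand) had no tested neighbour. Parp1 (chr1:180568924-180601254, + strand) had 3 tested neighbours, none of them called under any treatment. Parp8 (chr13:116854820-117025537, − strand) had Emb, which rose with IFNγ by 0.55 (adjusted p = 0.0315) and fell with αCD3 by 0.52 (adjusted p = 0.0174).

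The balance of Parp9 and Dtx3l is given as a description with no test, since the ratio was chosen after its values were seen. The ratio of Parp9 to Dtx3l counts was 0.761, 1.01 and 0.952 in Naïve, 0.981, 1.34 and 1.26 in αCD3, 0.874, 1.07 and 1.04 in IFNγ, and 1.06, 1.35 and 1.19 in LPS. Replicate 1 was the lowest in every group, and within each replicate number the ratio was higher in αCD3 and LPS than in IFNγ, and higher in IFNγ than in Naïve. Paired log2 differences from Naïve were 0.32 to 0.47 with LPS, 0.37 to 0.41 with αCD3 and 0.09 to 0.20 with IFNγ.

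**Figure D4:**
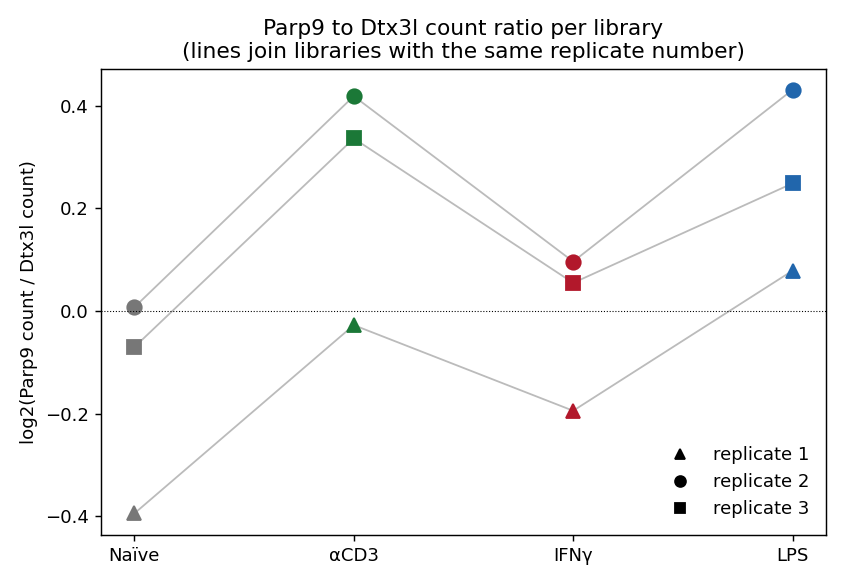
Log2 ratio of Parp9 to Dtx3l counts in each of the 12 libraries, with grey lines joining libraries of the same replicate number and a dotted line at equal counts. All 3 lines rise from Naïve to αCD3, drop at IFNγ and rise again at LPS, and replicate 1 runs below the others.

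To set the 8 genes in their pathway, lists of related genes were read from the same fit. The counts below are to be read against the shares of all tested genes, which were 8.17% higher and 4.27% lower with IFNγ, 22.9% and 15.7% with αCD3, and 26.9% and 22.3% with LPS. With the replicate block the shares called in either direction were 24.9%, 52.4% and 59.5%. Of 13 antiviral interferon targets, such as Ifit3, Mx1, Rsad2 and Isg15, 13 rose with IFNγ, 12 with αCD3 and 13 with LPS, with median log2 fold changes of 3.36, 2.48 and 3.51. The gene not called with αCD3 was Ddx58, the RNA sensor RIG-I, at 0.93 ± 0.35 (adjusted p = 0.0578), and limma-voom called 10 of the 13, the blocked fit 13. Ifit3 was 27.6, 38.1 and 37.9 CPM in Naïve and 474, 1238 and 1109 CPM in IFNγ, with 81.3, 527 and 387 CPM in αCD3. Like the 6 PARP and Dtx3l genes, it was lowest in replicate 1 of αCD3. Between IFNγ and LPS edgeR, DESeq2 and limma-voom each called 0 of the 13, with 0 at an unadjusted p under 0.05 in each. The median log2 difference was -0.01 by edgeR. Without replicate 1 of all groups 4 were called higher in IFNγ, beside 2719 of all 12193 genes tested in that fit.

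Of 12 genes for interferon receptors and signalling, 4 rose and 1 fell with IFNγ, 3 rose and 3 fell with αCD3, and 4 rose and 1 fell with LPS, with medians of 0.17, 0.14 and 0.27. In the blocked fit the counts were 3 and 5 with αCD3 and 5 and 3 with LPS. The shares called in αCD3 and LPS were near those of all tested genes. Stat2 and Irf9, which join in the factor that binds the ISRE, rose under all 3 treatments, Stat2 by 2.17 ± 0.31, 1.13 ± 0.30 and 1.75 ± 0.31 and Irf9 by 0.91, 0.42 and 0.86 for IFNγ, αCD3 and LPS. Irf1, a transcription factor induced early by interferon, rose by 2.11 ± 0.32 with IFNγ (adjusted p = 0.00226) and by 1.57 ± 0.32 with LPS (adjusted p = 0.00227), and its αCD3 value of 0.70 ± 0.31 did not pass (adjusted p = 0.0969). Ifngr1, the ligand-binding chain of the IFNγ receptor, fell with αCD3 from 666 ± 8.45 to 257 ± 37.5 CPM, a log2 fold change of -1.37 ± 0.09 (adjusted p = 5.76e-06). Ifngr2, the other chain, fell by 0.64 with IFNγ (adjusted p = 0.00423) and by 0.67 with αCD3.

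The rest of the PARP family had smaller median changes than the 8 genes. Both sets were chosen with earlier results of these data known, so this difference is only a description and was not tested. Of 9 other PARP genes, 3 rose with IFNγ, 2 rose and 2 fell with αCD3, and 2 rose and 1 fell with LPS, with medians of 0.23, -0.21 and 0.01. With the replicate block 5 rose with IFNγ, 2 rose and 4 fell with αCD3, and 2 rose and 3 fell with LPS, so that the called shares with αCD3 and LPS were near those of all genes. Parp3, a DNA repair member, was 50.2, 43.8 and 47.0 CPM in Naïve and 86.9, 78.2 and 84.2 CPM in IFNγ, a rise of 0.82 ± 0.07 (adjusted p = 2.74e-04), and rose by 0.44 ± 0.07 with αCD3. Zc3hav1, the antiviral zinc finger protein ZAP, rose by 0.57 ± 0.07 with IFNγ (adjusted p = 9.99e-04) and by 0.27 with LPS (adjusted p = 0.0114). Parp4 rose by 0.39 ± 0.10 with IFNγ (adjusted p = 0.0305) and fell by 0.32 with LPS (adjusted p = 0.0238). The tankyrases Tnks and Tnks2, which act at telomeres and in Wnt signalling, fell by 0.36 and 0.24 with αCD3. Parp16, an enzyme of the endoplasmic reticulum, was at 0 counts in all Naïve libraries and at 39, 11 and 16 counts in αCD3 (adjusted p = 0.0429), at least 6.35-fold higher against a floor of 3 counts per library. It had 0, 0 and 23 counts in IFNγ and 0, 10 and 11 in LPS. With αCD3 the number of these 9 genes called higher was 1 in place of 2 with no count filter, without αCD3 replicate 1 and without replicate 1 of all groups, so the call of Parp16, the one nearer the threshold, is uncertain.

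Enzymes that supply NAD, the substrate of PARPs, were read next. Nampt, the rate-limiting enzyme of NAD salvage, was 122, 172 and 190.1 CPM in Naïve, 505, 741 and 744 CPM in IFNγ, 459, 804 and 699.9 CPM in LPS and 219, 471 and 402 CPM in αCD3. Its treated libraries all lay above the Naïve libraries, and replicate 1 was the lowest of each group. It rose by 2.04 ± 0.31 with IFNγ (adjusted p = 0.00233), 2.02 ± 0.31 with LPS (adjusted p = 4.57e-04) and 1.17 ± 0.31 with αCD3 (adjusted p = 0.0123). Of the 8 genes of NAD supply and use, 2 rose with IFNγ, the other being Bst1, which cleaves NAD (1.48 ± 0.34, adjusted p = 0.0171), and 3 rose and 1 fell with αCD3 and with LPS. The gene that fell was Nadsyn1, the NAD synthetase, by 0.51 with αCD3 and by 0.79 with LPS. In the blocked fit 3 rose and 2 fell with IFNγ, and 4 rose and 1 fell with LPS. The medians of the list were -0.13, 0.09 and 0.10 for IFNγ, αCD3 and LPS.

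Another list held genes that remove ADP-ribose or direct its placement. Of 6 tested genes of this list (Macrod2 did not pass the count filter), edgeR called 0 with IFNγ, with 1 at an unadjusted p under 0.05, 0 by DESeq2 and by limma-voom, and 1 with the replicate block. With αCD3 4 rose, beside 22.9% of all tested genes, among them Hpf1, the factor that makes Parp1 modify serines (0.50 ± 0.11, adjusted p = 0.00499), Parg, which degrades ADP-ribose chains (0.28, adjusted p = 0.005), and Macrod1 (0.69). With LPS 3 rose, beside 26.9% of all tested genes, and 1 fell, Oard1, by 0.41 (adjusted p = 0.0168), whereas DESeq2 called 2 higher and 1 lower and the blocked fit 4 higher and 2 lower. The medians were 0.05, 0.33 and 0.20 for IFNγ, αCD3 and LPS.

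Partners of Parp1 in DNA repair were mostly called higher with αCD3 and LPS. Of 8 such genes 6 rose with αCD3, 6 rose and 2 fell with LPS, and 1 fell with IFNγ, with medians of 0.46, 0.42 and -0.10. Xrcc5, the Ku80 subunit that holds broken DNA ends, went from 42.0 CPM in Naïve to 83.1 CPM in αCD3 (0.98 ± 0.11, adjusted p = 6.04e-05) and 68.9 CPM in LPS (0.71 ± 0.11). Lig3, the ligase of single-strand break repair, rose by 0.72 ± 0.09 with αCD3 and by 0.60 ± 0.09 with LPS, and fell by 0.34 ± 0.09 with IFNγ (adjusted p = 0.0267). Xrcc1, a scaffold of single-strand break repair, was among those that fell with LPS, by 0.30. In the blocked fit 1 rose and 2 fell with IFNγ, and 6 rose and 1 fell with αCD3.

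No relative of Dtx3l was called higher with IFNγ, a count near the share of 8.17% of all tested genes. Of the 4 other deltex ligases edgeR called 0 with IFNγ, with 2 lower at an unadjusted p under 0.05, 2 lower by DESeq2, 2 lower with the replicate block and 0 by limma-voom. With αCD3 2 fell, Dtx1, a target of Notch, by 0.51 (adjusted p = 0.0183) and Dtx4 by 0.48 (adjusted p = 0.0163). The replicate block and DESeq2 each called 3 lower with αCD3, and edgeR without αCD3 replicate 1 called 0, with 3 lower at an unadjusted p under 0.05. With LPS Dtx4 rose by 0.74 (adjusted p = 0.001) and Dtx2 by 0.29, whereas Dtx3 fell by 0.54. The medians of the list were -0.16, -0.35 and 0.19.

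**Figure D5:**
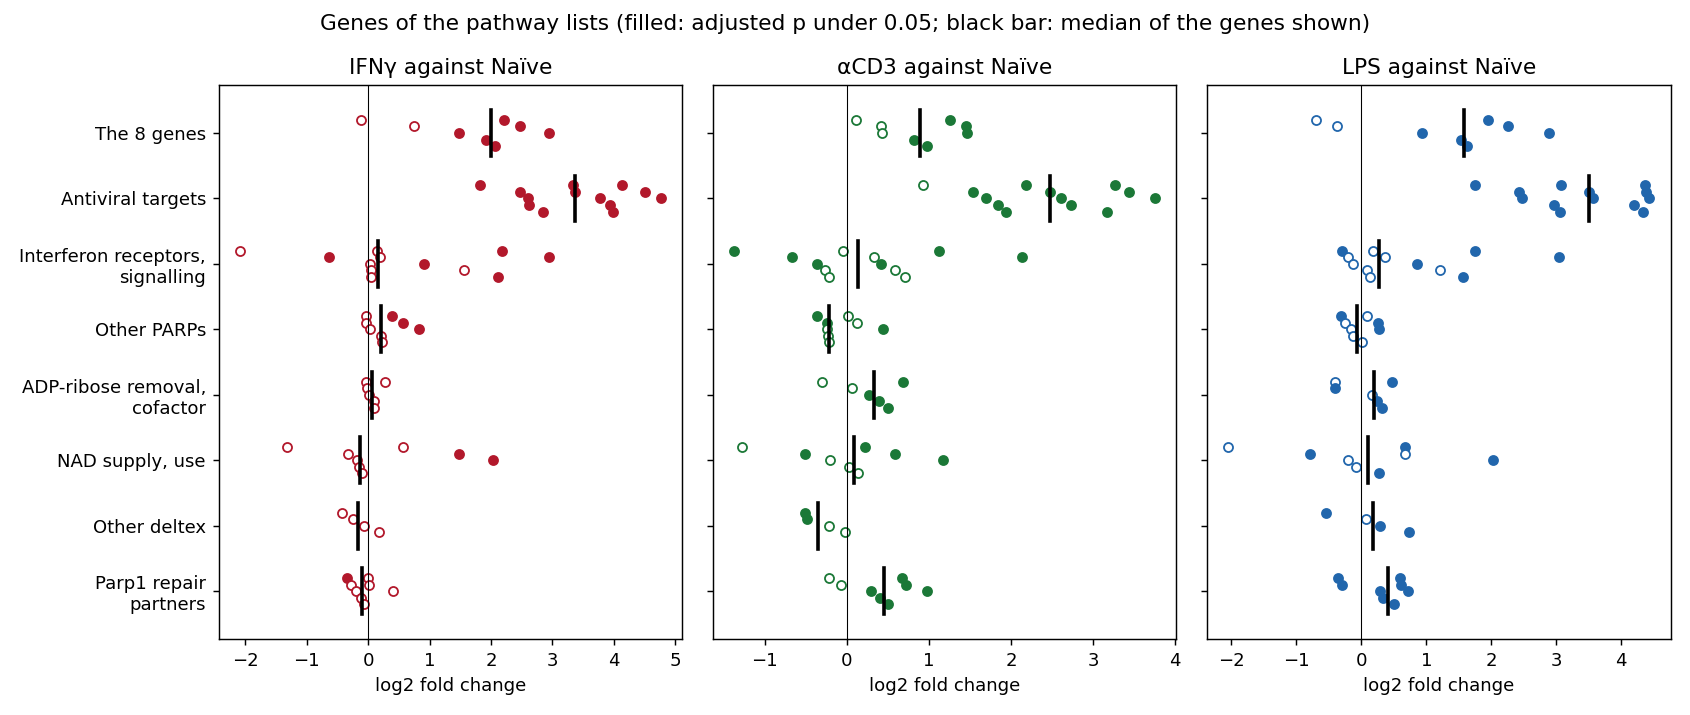
Log2 fold change against Naïve, in 1 panel per treatment, of the 8 genes and of the 7 related lists; each point is 1 gene, filled where called, and the black bar is the median of the genes shown, with Parp16 left out. The medians of the antiviral targets (3.36, 2.48 and 3.51 for IFNγ, αCD3 and LPS) and of the 8 genes (1.99, 0.90 and 1.58) stand above those of the other lists, which lie between -0.35 and 0.46. All lists were chosen with earlier results of these data known.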

How the data were processed

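mRNA libraries from 12 samples (4 groups of 3) were analysed. Per the labels and the study's methods, the authors estimated transcript abundance with Kallisto (version not given in the sources used here) against mm10 and deposited expected counts per gene; the submitters' processing notes also name DESeq2 1.24.0. In the study's methods data were TMM normalised and tested with DESeq2. The deposited counts were rounded to whole numbers. Genes were filtered with filterByExpr, scaled by TMM and tested in edgeR 4.0.16 (R 4.3.3, limma 3.58.1) with a robust quasi-likelihood F-test in 1 fit of all 12 libraries, adjusted by Benjamini-Hochberg over 12122 genes. All columns belonged to the 12 samples. Because counts were estimated, reads shared by overlapping genes were divided by a model. CPM use TMM-scaled library sizes, with a prior count of 2 on the log2 scale. The genes named as most alike are the 3 with the highest Pearson r per member over 12 libraries. The members, lists and tests were chosen with earlier results of these data known. Some genes of the lists are counted but not reported by name here.

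Groups came from the labels. Same-numbered libraries deviated together from their group means (18 of 18 pairs with a correlation over 0.1, 0.117 to 0.401, and 12 of 12 libraries closest to their own number), so the replicate number was also fitted as a block. Coordinates are GENCODE M21 (GRCm38), in which 20612 table genes were found. Alternatives were library size alone, DESeq2 size factors, the DESeq2 1.42.0 Wald test, limma-voom, no count filter, only the libraries compared, and leaving out libraries. The test was checked on simulated data.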

Additional observations from a re-analysis of the deposited data

How the results depend on the processing

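IFNγ against Naïve kept 6 called genes in every alternative run, LPS against Naïve gave 6 to 7, and the test of any difference 6 to 8. Against Naïve, αCD3 gave 5 called genes, 1 to 6 when a library was left out and 4 to 7 otherwise. IFNγ against αCD3 gave 6, but 3 with no count filter, 2 with only the 6 libraries compared, and 2 to 6 when a library was left out. It gave 6 higher and 1 lower with the replicate block and likewise without replicate 1 of all groups. IFNγ against LPS gave 1, but 3 with library size alone, 3 by the DESeq2 Wald test, 3 with the replicate block, 2 with only the 6 libraries compared, 0 with no count filter (3 at an unadjusted p under 0.05), 0 by limma-voom (2 unadjusted), 0 to 2 when a library was left out, and 6 without replicate 1 of all groups, an alternative chosen after seeing the data. αCD3 against LPS gave 1, but 2 with library size alone, 4 by DESeq2, 2 by limma-voom, 7 with the replicate block, 0 with no count filter (6 unadjusted), 0 with only the 6 libraries compared, 0 to 2 when a library was left out, and 7 without replicate 1 of all groups. The replicate block changed no other call of the 8 genes between 2 groups than those given with their results. Signs changed only for values that were not called: Parp1 in IFNγ against Naïve (-0.29 to 0.0033 when a library was left out), Parp8 in IFNγ against αCD3 (-0.12 to 0.72 when a library was left out, -0.093 without replicate 1 of all groups) and Parp12 in IFNγ against LPS (-0.042 by limma-voom, -0.044 with the block, -0.21 to 0.37 when a library was left out). Of the other single-gene values, 571 kept their side of the threshold, 46 gained one and 47 lost it. Over all genes, IFNγ against Naïve called 1508 genes, 3020 with the block, 2279 with library size alone, 2837 without replicate 1 of all groups and as few as 787 without 1 library; αCD3 against LPS called 2351, 4202, 3582 without replicate 1 of all groups, 1440 with the 6 libraries compared and as few as 1429. Library size alone moved the median log2 fold change of all genes to -0.16, -0.13 and -0.22 for IFNγ, αCD3 and LPS and the share of calls that were higher from 65.6 to 31.4%, 59.3 to 44.0% and 54.7 to 32.8%, and from 49.7 to 68.8% in αCD3 against LPS; no direction of a called member changed. The cause was not tested. Parp8 and Parp12 had the largest standard errors of the 8 genes.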
